A study of Mus musculus with 6 samples.

Results

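T cell and natural killer (NK) cell genes were examined in RNA from the mouse uterus on day 4 of pregnancy, collected at 1600 h, shortly before implantation. The set is a fixed list of 36 genes that lie outside the NK gene complex, chosen by symbol and found by gene ID among the 56748 genes of the tables. All 36 were found, and 35 had enough counts to be tested. Ifng was the exception. The genes were sorted by role into 7 in the T cell receptor (TCR)-CD3 complex, 6 coreceptors and costimulatory receptors, 4 signalling molecules next to the receptor, 9 cytotoxic and NK effectors, 5 genes of the IL15 and common gamma chain axis, 4 lineage transcription factors, and Ptprc, which encodes the pan-leukocyte protein CD45.

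The series compared 3 libraries labelled Zip10 cKO, from mice with a conditional knockout of the zinc importer Zip10 (gene Slc39a10) in the uterus, with 3 libraries labelled Control, whose genotype is given as WT. The sources used here give no Cre driver, strain or age, and do not say whether each library is a separate animal, so a p-value speaks only for the spread among these libraries. The labels call the tissue uterus and the series design names endometrium. The RNA came from mixed tissue, in which more cells of a type and more RNA per cell cannot be told apart.

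T cells recognise antigen through a receptor whose alpha and beta, or gamma and delta, chains signal through the CD3 chains and the kinases Lck and Zap70. Uterine NK cells need interleukin 15 (IL15), read through the receptor chains Il2rb and Il2rg, and kill or signal with perforin, granzymes and interferon gamma. In mice these NK cells become abundant in the decidua after implantation, and before it the uterus holds a smaller resident population together with scattered T cells, gamma-delta T cells among them.

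The sequences shown first are the windows upstream of the genes on which the results turn. Cd3e, Cd3d and Cd3g, neighbours on chromosome 9, had 1 library pattern in common, and Prf1 and Gzma had Zip10 cKO levels that did not overlap the Control levels. Each line is the 250 bases before the transcription start on the gene's own strand, from RefSeq on GRCm38.p6, a different build from the GRCm39 that the submitters' processing notes name. The positions are chr9:45009612-45009861 (minus strand) for Cd3e, chr9:44981536-44981785 (plus) for Cd3d, chr9:44980432-44980681 (minus) for Cd3g, chr10:61297586-61297835 (plus) for Prf1 and chr13:113100982-113101231 (minus) for Gzma. Capitals mark matches on either strand to AGGAAGT, a motif of ETS factors, or TGTGGT, a motif of RUNX factors. GGTGTGA, a T-box motif, was also searched and had no match in these 5 windows. The motifs were chosen after the sequences were seen.
Cd3e: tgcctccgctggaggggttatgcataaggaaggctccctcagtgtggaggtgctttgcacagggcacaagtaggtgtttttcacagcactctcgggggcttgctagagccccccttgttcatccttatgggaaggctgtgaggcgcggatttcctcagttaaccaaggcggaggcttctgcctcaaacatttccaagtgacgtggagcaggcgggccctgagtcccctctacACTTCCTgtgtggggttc
Cd3d: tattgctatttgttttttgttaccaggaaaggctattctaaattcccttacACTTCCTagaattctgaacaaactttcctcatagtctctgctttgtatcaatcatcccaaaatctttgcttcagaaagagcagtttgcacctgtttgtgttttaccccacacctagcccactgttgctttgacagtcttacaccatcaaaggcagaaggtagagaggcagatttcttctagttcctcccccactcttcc
Cd3g: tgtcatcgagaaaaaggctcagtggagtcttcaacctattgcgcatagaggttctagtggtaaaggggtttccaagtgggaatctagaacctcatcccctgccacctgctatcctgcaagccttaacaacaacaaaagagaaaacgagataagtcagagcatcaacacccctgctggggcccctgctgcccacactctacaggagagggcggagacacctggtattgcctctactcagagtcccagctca
Prf1: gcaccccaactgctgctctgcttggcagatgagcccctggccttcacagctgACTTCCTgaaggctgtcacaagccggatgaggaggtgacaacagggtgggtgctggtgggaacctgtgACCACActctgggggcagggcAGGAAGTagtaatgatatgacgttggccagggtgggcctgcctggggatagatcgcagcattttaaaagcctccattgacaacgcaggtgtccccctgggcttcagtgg
Gzma: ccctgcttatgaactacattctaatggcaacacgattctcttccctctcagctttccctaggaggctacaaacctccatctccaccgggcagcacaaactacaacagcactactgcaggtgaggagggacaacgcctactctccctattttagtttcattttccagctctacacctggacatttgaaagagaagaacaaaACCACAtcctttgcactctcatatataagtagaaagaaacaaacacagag

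Of the 36 genes, 27 had such a window. The ETS motif was present in windows of 12 of them (44.4%), against 7.69% of all 32851 windows in the table. The RUNX motif was also present for 12 (44.4%), against 14.0% of all windows, and the T-box motif for 3 (11.1%), against 3.33%. A gene with several starts was counted once if any of its windows held the motif, which favours the genes over single windows. These are matches of letters and do not show that a factor binds there.

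The 6 libraries held 19643093 to 22809577 counts. Slc39a10, the targeted gene, was at 39.5, 72.5 and 79.8 CPM (counts scaled to the size of each library) in libraries labelled Zip10 cKO 1, 2 and 3. In Control libraries it was at 54.6, 70.4 and 66.2 CPM. The log2 fold change (Zip10 cKO over Control) was 0.0046 ± 0.24 (SE), so the RNA of the whole gene was not lower in Zip10 cKO. Zip10 cKO library 1 lay below every Control library, and libraries 2 and 3 lay above every Control library. As the deleted exons are unknown here, a total over the whole gene is no check of genotype. Zip10 cKO library 1 stood apart from the other 5 libraries when distances between them were scaled to a plane, with a first coordinate of -1.58 against -0.02 to 0.77. Its share of mitochondrial counts was 3.43%, against 4.50% to 4.84% in the others, and results that rest on it are given with and without it. All 8 genes listed as uterine markers, among them Pgr and Hoxa10, were measured, with a summed level of 1114 to 1326 CPM in Zip10 cKO and 1344 to 1503 CPM in Control libraries.

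By edgeR's quasi-likelihood test with Benjamini-Hochberg adjustment, 0 of the 35 genes were called at 0.05, as were 0% of all 16737 genes. The smallest adjusted p in the set was 0.747. At an unadjusted p under 0.05, 5 of the 35 tested genes (14.3%) were higher in Zip10 cKO and 0 lower, against 4.48% of all genes higher and 1.98% lower. DESeq2 also called 0 genes of the set, against 0.208% of the 18295 genes to which it gave an adjusted p. At an unadjusted p under 0.05 it had 5 genes of the set higher, against 2.77% of 28970 genes. Those 28970 were not filtered for low counts, so this share cannot be set beside the 4.48% from edgeR. Fold changes had a positive sign for 31 of 35 genes, against 49.4% of all genes, and for 19 of 35 without Zip10 cKO library 1, against 48.9% of all genes. The median log2 fold change (Zip10 cKO over Control) was 0.37 in the set and -0.0024 over all genes tested, and the median of the set was 0.03 without Zip10 cKO library 1.

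**Figure D1:**
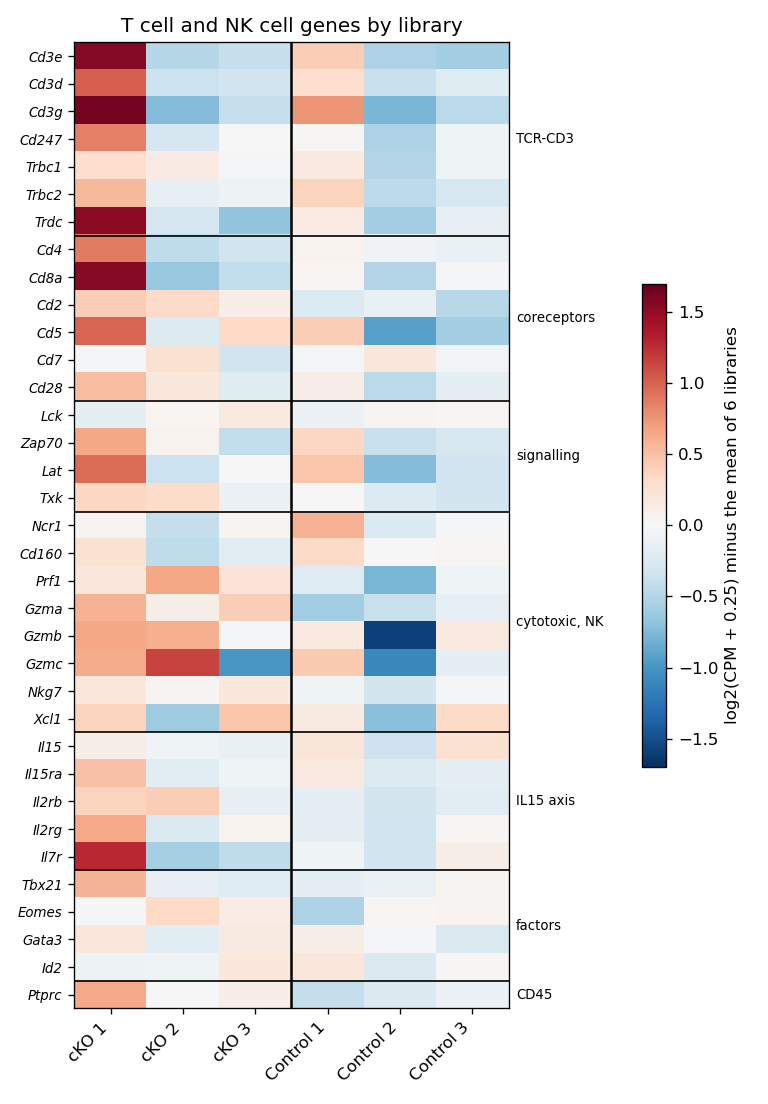
Level of each of the 35 tested genes (rows, grouped by role) in each library (columns), as log2(CPM + 0.25) minus the mean of the 6 libraries, red for higher and blue for lower. The Zip10 cKO library 1 column is red for Cd3e, Cd3d, Cd3g, Trdc, Cd8a and Il7r, while libraries 2 and 3 of that group are blue for these genes.

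The pattern of the set differed by role and by library. Zip10 cKO library 1 was the highest of the 6 libraries for 24 of 35 genes (68.6%), against 24.6% of all genes tested. It was highest for 15 of the 17 genes in the 3 T cell classes and for 3 of the 8 tested cytotoxic and NK effectors. Among the Control libraries, library 1 was highest for 14 of those 17 T cell genes and for 21 of the 35 genes (60.0%), against 37.4% of all genes. Both patterns together were found for 16 genes (45.7%), against 7.84% of all genes.

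In the TCR-CD3 complex, the CD3 chains and Trdc had 1 Zip10 cKO library well above the other libraries, and no gene passed the test. Cd3e, a CD3 signalling chain, stood at 4.18, 0.828 and 0.894 CPM in Zip10 cKO libraries 1, 2 and 3, against 1.76, 0.790 and 0.756 CPM in Control libraries 1, 2 and 3. Cd3g, its partner chain, stood at 8.60, 1.47 and 1.94 CPM in Zip10 cKO and 4.57, 1.43 and 1.84 CPM in Control libraries. In both genes Zip10 cKO library 1 was the highest and Control library 1 the next, and the remaining 4 libraries lay close together. Cd3d was at 3.52, 1.20 and 1.24 CPM in Zip10 cKO and 2.02, 1.19 and 1.37 CPM in Control libraries, and Cd247, the zeta chain, at 5.70, 2.44 and 3.03 CPM and 3.08, 2.03 and 2.88 CPM. These levels rest on few counts, 16 to 88 for Cd3e and 29 to 181 for Cd3g in a library.

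Trdc, the constant region of the TCR delta chain carried by gamma-delta T cells, had 15.5, 4.23 and 3.18 CPM in Zip10 cKO libraries and 5.76, 3.41 and 4.68 CPM in Control libraries. Zip10 cKO library 1 had 4.18 times the mean level of the other two Zip10 cKO libraries, and the corresponding ratios were 4.86 for Cd3e, 5.05 for Cd3g and 5.35 for Cd8a. The log2 fold changes of the whole groups were 0.83 ± 0.68 (SE) for Cd3e, 0.61 ± 0.72 for Cd3g and 0.72 ± 0.57 for Trdc. Without Zip10 cKO library 1 they were -0.36, -0.63 and -0.32. The 95% interval for Cd3e ran from a fold of 0.599 to 5.26, so neither a fall nor a several-fold rise is outside it.

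Of the TCR beta constant regions, Trbc1 did not share the step in Zip10 cKO library 1, and Trbc2 had a smaller one. Trbc1 was at 8.37, 7.55 and 6.71 CPM in Zip10 cKO and 7.74, 4.79 and 6.52 CPM in Control libraries, with a log2 fold change of 0.25 ± 0.22 (SE). Trbc2 was at 5.80, 3.50 and 3.63 CPM in Zip10 cKO and 5.10, 2.77 and 3.16 CPM in Control libraries. Its log2 fold change was 0.23 ± 0.31, and -0.05 without Zip10 cKO library 1, where that of Trbc1 was 0.16. Both genes were highest in library 1 of each group, but the groups overlapped. The split of reads between this pair is uncertain, since the transcripts are 95.6% identical over 521 aligned positions and share a run of 259 bases, and their deposited counts were fractional in all 6 libraries. The stretch below, bases 230 to 319 of each GENCODE M21 transcript (GRCm38, chromosome 6), is shown because it holds the first difference between them after that shared run, marked by a capital.
Trbc1: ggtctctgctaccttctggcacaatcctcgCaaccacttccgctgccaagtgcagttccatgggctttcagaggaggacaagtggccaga
Trbc2: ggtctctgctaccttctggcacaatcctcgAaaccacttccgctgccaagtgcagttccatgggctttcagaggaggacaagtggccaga

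Among the coreceptors, Cd8a, which marks cytotoxic T cells, was likewise highest in Zip10 cKO library 1, at 3.85, 0.644 and 0.795 CPM in Zip10 cKO and 1.19, 0.741 and 1.13 CPM in Control libraries. Cd4, the helper T cell coreceptor that some myeloid cells also carry, was at 3.47, 1.24 and 1.34 CPM in Zip10 cKO and 1.85, 1.68 and 1.61 CPM in Control libraries. Without Zip10 cKO library 1, both remaining Zip10 cKO values of Cd4 lay below every Control value, with a log2 fold change of -0.41. Cd2, an adhesion receptor of T and NK cells, differed from these. It was at 4.14, 3.87 and 3.28 CPM in Zip10 cKO and 2.55, 2.77 and 2.13 CPM in Control libraries, with no overlap and a log2 fold change of 0.60 ± 0.23 (edgeR unadjusted p = 0.0323, adjusted p = 0.747). Cd5, a T cell receptor inhibitor, had the highest log2 fold change of the set, 0.90 ± 0.58, from 5 to 34 counts a library. It was 0.43 without Zip10 cKO library 1, where Prf1 was highest at 0.80, and 1.70 without Control library 1. Cd28, the receptor for costimulation by B7 proteins, stood at 0.37 ± 0.29 (log2 fold change, SE). Cd7, shared by T and NK cells, stood at -0.06 ± 0.21, and its sign was positive without Zip10 cKO library 3 or Control library 2.

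**Figure D2:**
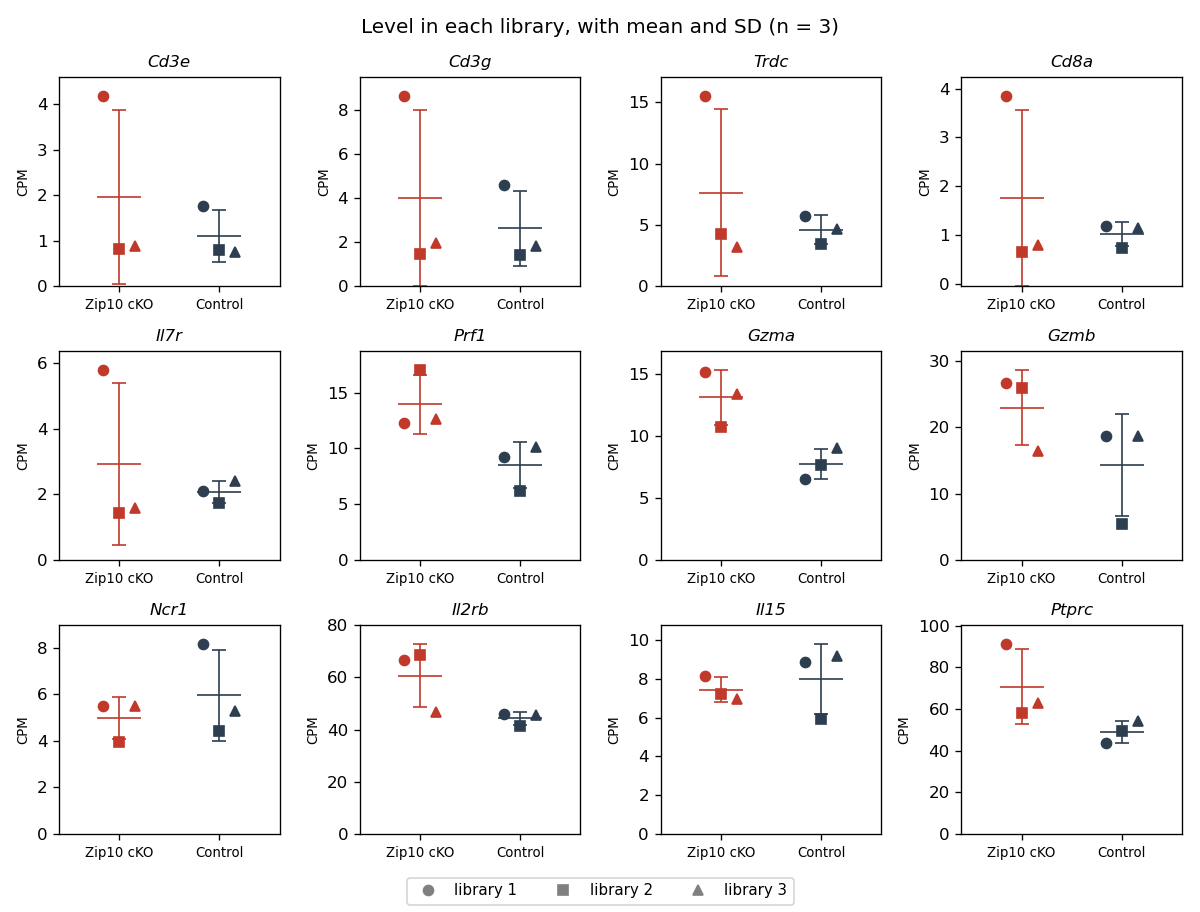
CPM of 12 genes in each library, with Zip10 cKO left of Control. Symbols give the library number, horizontal bars the mean and error bars the SD (n = 3). Cd3e, Cd3g, Trdc, Cd8a and Il7r have 1 high Zip10 cKO point, while all 3 Zip10 cKO points of Prf1, Gzma, Il2rb and Ptprc lie above the Control points.

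Of the signalling molecules, Lck, the kinase that starts TCR signalling, was at 11.9, 13.6 and 14.9 CPM in Zip10 cKO and 12.4, 13.7 and 13.5 CPM in Control libraries. It was lowest in library 1 of both groups, unlike the CD3 chains it serves, with a log2 fold change of 0.03 ± 0.14 (SE). Lat, the adaptor phosphorylated by Zap70, followed the CD3 pattern at 3.57, 1.29 and 1.74 CPM in Zip10 cKO and 2.51, 0.939 and 1.32 CPM in Control libraries. Zap70, the kinase bound to the phosphorylated CD3 chains, had a log2 fold change of 0.25 ± 0.34, and Txk, a Tec-family kinase, one of 0.41 ± 0.25. Without Zip10 cKO library 1 the fold changes were -0.10 for Zap70, -0.08 for Lat and 0.32 for Txk.

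Among the 8 tested cytotoxic and NK effectors, Gzma, Prf1 and Nkg7 had all 3 Zip10 cKO values above the Control values, against 6.93% of all genes tested. The other tested effectors overlapped. Gzma, granzyme A, was at 15.2, 10.8 and 13.4 CPM in Zip10 cKO and 6.55, 7.66 and 9.02 CPM in Control libraries. Prf1, the pore-forming protein perforin, was at 12.3, 17.0 and 12.6 CPM in Zip10 cKO and 9.23, 6.18 and 10.2 CPM in Control libraries. In both genes every Zip10 cKO library lay above every Control library, and Zip10 cKO library 1 was the lowest of its group for Prf1. The folds were 1.69 for Gzma (95% interval 1.25 to 2.29) and 1.64 for Prf1 (1.15 to 2.33). Neither passed the test over all genes (edgeR unadjusted p = 0.00361 for Gzma and 0.0117 for Prf1, adjusted p = 0.747 for both). Permuting the group labels over all splits of the CPM (exact, two-sided) gave p = 0.1 for each gene, the smallest value that 3 libraries a group allow. Any gene whose groups do not overlap gives this value, so it adds nothing to the lack of overlap. Without Zip10 cKO library 1 the log2 fold changes were 0.64 and 0.80.

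Gzmb, granzyme B, stood at 26.6, 25.9 and 16.4 CPM in Zip10 cKO and 18.7, 5.39 and 18.7 CPM in Control libraries. The groups overlapped, and Control library 2 was the lowest of the 6. Gzmc, a granzyme encoded beside it, had 9.22, 13.3 and 2.83 CPM in Zip10 cKO and 8.09, 2.62 and 5.24 CPM in Control libraries, so that it varied more within the groups than between them. Gzmb and Gzmc transcripts share no run longer than 49 bases, and their counts were whole numbers (within 0.005) in all 6 libraries. Nkg7, a granule membrane protein of cytotoxic cells, was at 15.7, 14.1 and 15.5 CPM in Zip10 cKO and 12.9, 10.9 and 13.3 CPM in Control libraries, without overlap and with a fold of 1.22 (95% interval 0.978 to 1.53).

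The remaining tested effectors had overlapping groups, with a negative fold change for Ncr1 and Cd160 and a positive one for Xcl1. Whether they differed from the granule genes was not tested. Ncr1, the NK cell activating receptor NKp46, was at 5.51, 3.96 and 5.51 CPM in Zip10 cKO and 8.18, 4.45 and 5.29 CPM in Control libraries, a log2 fold change of -0.26 ± 0.27 (SE), which was 0.03 without Control library 1. Cd160, a receptor of NK cells and cytotoxic T cells, stood at -0.28 ± 0.35 from 12 to 25 counts a library, and on the deposited TPM scale its sign was positive. Xcl1, a chemokine that attracts dendritic cells, stood at 0.17 ± 0.37. Ifng, the interferon gamma gene, was listed with 5, 2 and 7 counts in Zip10 cKO and 11, 4 and 7 counts in Control libraries and was too low to test. In Zip10 cKO library 1, where Cd3e, Trdc and Cd8a were highest, Ncr1 was within the range of the other libraries.

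**Figure D3:**
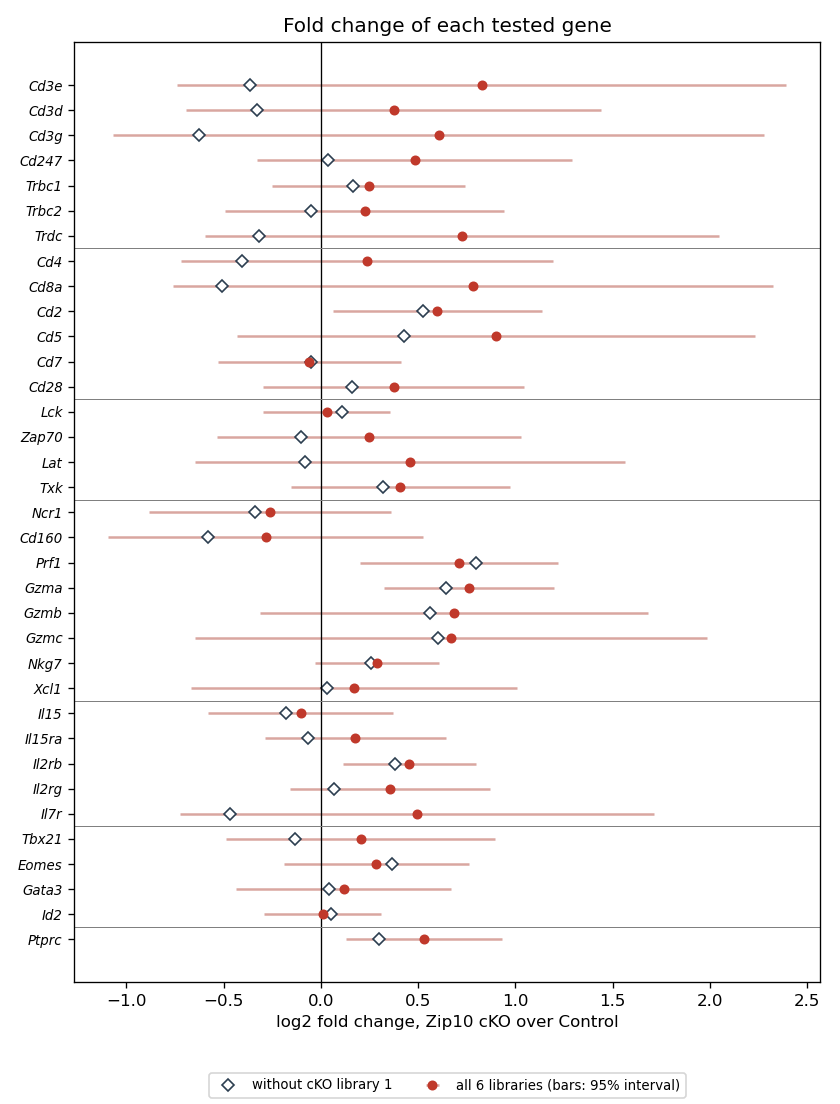
Log2 fold change (Zip10 cKO over Control) of each tested gene. Filled points use all 6 libraries, with 95% intervals as bars, and open diamonds leave out Zip10 cKO library 1. The diamonds of the CD3 chains, Trdc, Cd8a, Cd4 and Il7r lie to the left of the filled points, most of them below 0, while those of Prf1, Gzma, Gzmb, Cd2 and Il2rb stay above 0.

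On the IL15 axis 1 of 5 genes, Il2rb, had groups that did not overlap, with Zip10 cKO above. Over all genes tested, 6.93% lay wholly above and 5.78% wholly below. Il15, the cytokine, was at 8.18, 7.22 and 6.95 CPM in Zip10 cKO and 8.88, 5.93 and 9.21 CPM in Control libraries, with a fold of 0.930 (95% interval 0.669 to 1.29). Il15ra, the chain that presents IL15 to neighbouring cells, was at 31.0, 19.1 and 20.8 CPM in Zip10 cKO and 24.6, 18.6 and 19.5 CPM in Control libraries. Neither differed between the groups by more than the libraries differed within them. Il2rb, the beta chain shared by the IL2 and IL15 receptors, was at 66.8, 68.6 and 46.7 CPM in Zip10 cKO and 46.0, 41.4 and 45.4 CPM in Control libraries. All Zip10 cKO values lay above the Control values, library 3 by a narrow margin, with a fold of 1.37 (95% interval 1.08 to 1.74; edgeR unadjusted p = 0.0150, adjusted p = 0.747).

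Il2rg, the common gamma chain, was at 34.0, 18.2 and 22.6 CPM in Zip10 cKO and 19.4, 17.1 and 21.9 CPM in Control libraries, high in Zip10 cKO library 1 alone. The log2 fold change of Il2rg was 0.36 ± 0.22 (SE), and 0.07 without Zip10 cKO library 1. Il7r, the IL7 receptor of T cells and other lymphoid cells, was at 5.80, 1.43 and 1.59 CPM in Zip10 cKO and 2.11, 1.73 and 2.41 CPM in Control libraries. Zip10 cKO library 1 was above, and libraries 2 and 3 below, every Control library. Its log2 fold change was 0.49 ± 0.53 (SE), -0.47 without Zip10 cKO library 1 and -0.05 on deposited TPM with a pseudocount of 1.

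The median log2 fold change of the lineage factors, 0.16, was the lowest of the role classes. Eomes and Tbx21 (T-bet), the T-box factors of NK and cytotoxic T cells, had log2 fold changes of 0.29 ± 0.21 and 0.20 ± 0.30 (SE). Gata3, a factor of T cells and innate lymphoid cells that other uterine cells also express, stood at 0.12 ± 0.24. Id2, an inhibitor of E proteins needed by NK cells and expressed widely in tissues, stood at 0.01 ± 0.13. Eomes was at 8.41, 10.8 and 9.29 CPM in Zip10 cKO and 5.85, 8.75 and 8.83 CPM in Control libraries, and its 2 remaining Zip10 cKO values lay above all Control values when library 1 was left out.

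On the TPM scale, which divides by transcript length and so allows genes to be compared, Id2 was the most abundant of the 36, at 88.9 ± 9.91 TPM in Zip10 cKO and 84.1 ± 9.37 TPM in Control libraries (SD, n = 3 each). Next in Zip10 cKO libraries came Nkg7 at 31.8 ± 1.13 TPM, against 24.2 ± 3.13 TPM in Control libraries, and Il15ra at 27.8 ± 9.24 TPM, against 22.5 ± 2.57 TPM. Within Zip10 cKO libraries, Il15ra, Gzma (25.6 ± 5.0 TPM) and Gzmb (24.5 ± 6.09 TPM) did not differ from each other beyond their spread. Between the groups, Gzma did not overlap on this scale either, at 14.4 ± 2.79 TPM in Control libraries. Gzmb, with a mean of 14.4 TPM in Control libraries, overlapped between the groups. The T cell coreceptors were far lower, with Cd8a at 0.920 ± 0.906 TPM in Zip10 cKO and 0.567 ± 0.145 TPM in Control libraries, and Ifng was at 0.380 ± 0.0721 TPM in Zip10 cKO and 0.417 ± 0.155 TPM in Control libraries. Ifng was the lowest of the set in Zip10 cKO libraries and Cd5, at 0.343 ± 0.246 TPM, the lowest in Control libraries.

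Ptprc, the pan-leukocyte gene, was at 91.3, 58.1 and 62.8 CPM in Zip10 cKO and 43.7, 49.3 and 54.1 CPM in Control libraries, a fold of 1.44 (95% interval 1.09 to 1.91; edgeR unadjusted p = 0.0158, adjusted p = 0.747). Its log2 fold change was 0.53 with all libraries and 0.30 without Zip10 cKO library 1. Ptprc joined Cd2, Prf1, Gzma, Nkg7 and Il2rb as the 6 of 35 genes (17.1%) whose Zip10 cKO values all lay above the Control values, against 6.93% of all genes tested, and 0 lay wholly below, against 5.78%. Without Zip10 cKO library 1 the same 6 and Eomes lay above (7 genes, 20%, against 10.4% of all genes), and Cd4, Cd160 and Il7r below (3 genes, 8.57%, against 9.25%). Without Control library 1 there were 11 above (31.4%, against 10.7%), among them Cd3e and both TCR beta constant regions, and 0 below (against 9.82%).

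Set against Ptprc in the same library, 28 of the 34 other tested genes (82.4%) had a lower mean log2 ratio in Zip10 cKO than in Control libraries, against 94.6% of all genes tested. Ptprc itself was higher in Zip10 cKO, so a lower ratio to it was the rule. All Zip10 cKO ratios lay below all Control ratios for 5 of the 34 (14.7%: Cd160, Il15ra, Lck, Ncr1 and Tbx21), against 42.8% of all genes. For Gzma the ratio was -2.58, -2.42 and -2.22 in Zip10 cKO and -2.71, -2.66 and -2.56 in Control libraries, a difference in means of 0.24 with overlapping groups. For Ncr1 it was -4.02, -3.83 and -3.48 in Zip10 cKO and -2.40, -3.43 and -3.32 in Control libraries. Il15 had a mean ratio of -3.20 in Zip10 cKO and -2.61 in Control libraries. For Cd3e the ratio was -4.40 in Zip10 cKO library 1 and -4.53 in Control library 1, and -5.93 to -5.73 in the other four libraries. Ptprc is also expressed by macrophages, so a ratio to it is not a share of lymphocytes.

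**Figure D4:**
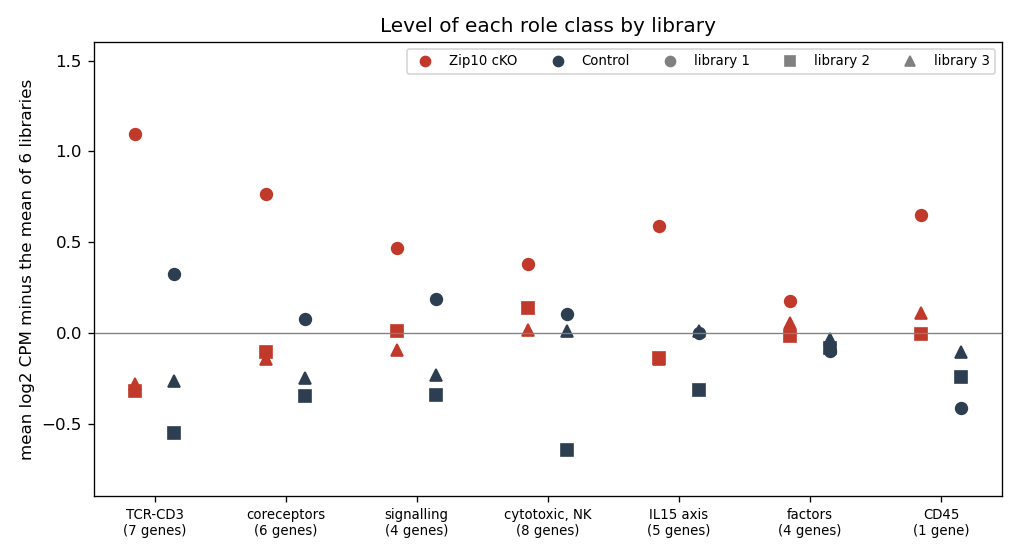
Mean over the tested genes of each role class of log2 CPM minus the mean of the 6 libraries, 1 point per library, Zip10 cKO left of Control. Zip10 cKO library 1 is the highest point of the TCR-CD3 class at 1.1, Control library 1 is next at 0.32, and the lowest point of the cytotoxic class is Control library 2 at -0.65.

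Averaged by class, the libraries rather than the groups separated the T cell genes. The mean deviation of the 7 TCR-CD3 genes was 1.1, -0.32 and -0.28 in Zip10 cKO and 0.32, -0.55 and -0.27 in Control libraries (log2 CPM). For the 8 cytotoxic and NK effectors it was 0.38, 0.14 and 0.01 in Zip10 cKO and 0.11, -0.65 and 0.01 in Control libraries, and for the 5 IL15 axis genes 0.59, -0.14 and -0.15 in Zip10 cKO and 0.00, -0.31 and 0.01 in Control libraries. The median log2 fold changes were 0.48 for TCR-CD3, 0.48 for the effectors and 0.36 for the IL15 axis. Without Zip10 cKO library 1 these medians were -0.32, 0.41 and -0.07.

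Other genes of the same pathways, in 6 lists, gave 0 calls by edgeR after adjustment, and those named are among the 3 with the smallest unadjusted p in each list. Of 16 tested TCR signalling genes, 2 were higher at an unadjusted p under 0.05, against 4.48% of all genes. Among them was the exchange factor Vav1 with a log2 fold change of 0.64 ± 0.23 (SE). Lcp2, an adaptor beside Lat, stood at 0.46 ± 0.22. Among 15 T cell differentiation and checkpoint genes, 1 was lower at that level, against 1.98% of all genes. This was Tcf7, a transcription factor of naive T cells that stromal and epithelial cells can also express, at 24.1, 32.0 and 28.0 CPM in Zip10 cKO and 33.4, 36.2 and 34.6 CPM in Control libraries. Icos, a costimulatory receptor, gave 0.66 ± 0.45, and S1pr1, a lipid receptor for lymphocyte exit that endothelium also expresses, -0.25 ± 0.17.

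Of 14 tested granule genes outside the set, 1 was higher at an unadjusted p under 0.05, against 4.48% of all genes. This was Fasl, the death ligand of cytotoxic cells, with 2.04, 1.56 and 1.74 CPM in Zip10 cKO and 1.19, 0.988 and 1.13 CPM in Control libraries. Its groups did not overlap, and its log2 fold change was 0.69 ± 0.28 (SE). Rab27a, needed for granule release, stood at 0.34 ± 0.18, and Ctsc, the protease that activates granzymes, at 0.41 ± 0.25. All 19 tested NK receptors and adaptors had a positive fold change, against 49.4% of all genes. At an unadjusted p under 0.05 there were 3, against 4.48% of all genes higher at that level. These were Itga1 at 0.57 ± 0.17, Itga2 at 0.53 ± 0.20 and the receptor Cd96 at 0.64 ± 0.26. Zip10 cKO library 1 was highest for 17 of the 19, against 24.6% of all genes. The median log2 fold change of the 19 was 0.50 with that library and 0.15 without it. The integrins Itga1 and Itga2 are also expressed by stromal, muscle and endothelial cells.

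In the list of gamma chain cytokines and their signalling, 2 of 16 tested genes were higher at an unadjusted p under 0.05, against 4.48% of all genes. These were the IL4 receptor chain Il4ra at 0.42 ± 0.13 (log2 fold change, SE) and the signalling inhibitor Socs2 at 0.35 ± 0.14, while Socs3 stood at 0.18 ± 0.12. Il9 and Il21 were at 0 counts in every library. Of 17 lymphocyte transcription factors, 3 were higher at that level, against 4.48% of all genes. Runx3, a factor of cytotoxic lymphocytes, was at 10.03, 7.45 and 6.71 CPM in Zip10 cKO and 4.88, 5.34 and 6.09 CPM in Control libraries, without overlap, and Nfil3, needed for NK development in mice, and Zbtb16 (PLZF) stood at 0.34 ± 0.13 and 0.34 ± 0.15.

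Markers of other cells differed between the same libraries. The 11 macrophage markers all had positive fold changes, against 49.4% of all genes. Zip10 cKO library 1 was highest for 9 of the 11, against 24.6% of all genes. The macrophage sum was 464 to 927 CPM in Zip10 cKO and 412 to 586 CPM in Control libraries. The stromal sum was 14619 to 17131 CPM in Zip10 cKO and 10332 to 13738 CPM in Control libraries, the smooth muscle sum 10174 to 14356 and 5830 to 10875 CPM, and the epithelial sum 736 to 1120 and 874 to 1336 CPM. The neutrophil sum was 8.83 to 40.4 CPM in Zip10 cKO, highest in library 1, and 8.79 to 12.99 CPM in Control libraries. The B and plasma cell sum was 191 to 277 CPM in Zip10 cKO and 167 to 188 CPM in Control libraries. The groups did not overlap in the stromal sum or, by a narrow margin (191 against 188 CPM), in the B and plasma cell sum. They overlapped in the sums of dendritic, mast and endothelial cells. The sum of the uterine markers also did not overlap and was lower in Zip10 cKO, at 1114 to 1326 against 1344 to 1503 CPM. The part of these cells and markers in the results on T cell and NK cell genes was not tested.

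Of 8 markers of lymph node and lymphoid stroma, 2 (Ccl21a and Chst4) were high enough to test. The sum of the 8 was 135, 96.7 and 91.7 CPM in Zip10 cKO and 119, 132 and 114 CPM in Control libraries, highest in Zip10 cKO library 1. Cxcl13, Cr2, Ccl19, Glycam1, Madcam1 and Fcer2a had 0 to 11 counts in every library and were too low to test. The B cell genes Ms4a1 and Pax5 had 0 to 3 counts in every library. Red blood cell genes, a measure of blood in the tissue, had sums of 195, 254 and 216 CPM in Zip10 cKO and 218, 188 and 118 CPM in Control libraries. The part of lymphoid tissue or blood in the results was not tested.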

How the data were processed

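Uterine poly(A) RNA of 6 libraries, 3 Zip10 cKO and 3 Control by the sample titles, was analysed. Tools listed in the submitters' processing notes are STAR 2.7.10a, RSEM 1.3.3, fastp 0.23.2, edgeR 3.38.4 and R 4.2.1, with GRCm39; the sources used here do not state the annotation release or strandedness. Per the file headers, the authors deposited RSEM expected counts, in which reads shared by genes are split, TPM, and other columns with gene and effective lengths. Of 56748 gene IDs, 52073 (91.8%) matched a symbol of GENCODE M21, as did 244 of 245 listed genes.

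Expected counts were rounded, filtered with filterByExpr (minimum count 10, minimum total 15), scaled by TMM and compared with edgeR 4.0.16's two-sided quasi-likelihood test (R 4.3.3); p-values of 16737 genes were adjusted by Benjamini-Hochberg at a threshold of 0.05. SEs come from the F statistic. Log2 levels used a prior count of 3. Alternatives used limma 3.58.1, DESeq2 1.42.0, other scalings and filters, log2 TPM with pseudocounts of 1 and 0.1, removal of a length trend (loess, span 0.5), the replicate block and each library left out. The scripts were tested on simulated counts. No 2 libraries were alike within counting noise (chi-square per degree of freedom at least 14.3). Intervals cover the spread between libraries. Figures were drawn with matplotlib 3.10.9.

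The 36 genes, the lists and the tests were chosen with earlier results of these data known. All 36 are reported, with the 3 genes of smallest p in each further list, except for a gene that is not reported here. Blk, the counts by highest library and the shares of ratios to Ptprc were chosen after their values were seen.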

Additional observations from a re-analysis of the deposited data

How the results depend on the processing

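With no filter on low counts edgeR called 15 genes, with its likelihood ratio test 30, with DESeq2 38 and without single libraries 0 to 2; none of these calls was in the set. Leaving out single libraries gave 3 to 6 genes of the set at an unadjusted p under 0.05 (3 without Zip10 cKO library 2), 19 to 31 with a positive fold change, and 10 or 11 without overlap between groups (10 without Zip10 cKO library 1, 11 without Control library 1, counts added after the data were seen). With single libraries left out, the class medians ran from -0.32 to 0.70 for TCR-CD3, 0.054 to 0.62 for coreceptors, 0.015 to 0.51 for signalling, -0.068 to 0.44 for the IL15 axis and 0.048 to 0.20 for lineage factors, each lowest without Zip10 cKO library 1. The effectors ran from 0.25 to 0.51.

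Of 592 values of single genes under alternatives, 564 kept direction and side of the threshold and 28 turned sign, 21 of them without 1 library and 12 without Zip10 cKO library 1. Their log2 fold changes with single libraries left out ran from -0.36 to 1.33 for Cd3e, -0.33 to 0.63 for Cd3d, -0.63 to 1.28 for Cd3g, -0.050 to 0.53 for Trbc2, -0.32 to 1.09 for Trdc, -0.41 to 0.48 for Cd4, -0.51 to 1.17 for Cd8a, -0.10 to 0.52 for Zap70, -0.080 to 0.94 for Lat, -0.068 to 0.305 for Il15ra, -0.47 to 0.82 for Il7r, -0.13 to 0.36 for Tbx21, -0.23 to 0.082 for Cd7, -0.045 to 0.11 for Lck, -0.43 to 0.029 for Ncr1, -0.093 to 0.44 for Xcl1 and -0.10 to 0.11 for Id2. On TPM with pseudocounts of 1 and 0.1, Cd160 stood at 0.047 and 0.050 and Il7r at -0.054 and -0.18. Cd7 stood at 0.014 with the length trend removed, and Id2 at -0.0037 with upper-quartile factors and -0.00069 with a filter of 1 CPM in 3 libraries. The causes were not tested.

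Same-numbered libraries of the groups correlated at 0.09, 0.25 and 0.19 in their deviations, against -0.33 to 0.12 for libraries of unlike number. Zip10 cKO library 1 correlated best with Control library 3 (0.12), and every other library with the library of its own number. The labels do not say that the numbers are pairs. The main test did not use them, and a fit with the replicate block is given beside it. With the replicate block 0 genes were called, and 6 genes of the set had an unadjusted p under 0.05. The share of all genes at that level in the block fit is not given here, so nothing is drawn from the 6. Cd5, Cd160 and Ifng had under 50 counts in every library, which limits what could be detected for them.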

Other observations

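Blk, a Src-family kinase of B cells that is also known from gamma-delta T cells of mice, was singled out after its values were seen. It had 4.42, 0.460 and 0.745 CPM in Zip10 cKO and 1.93, 0.395 and 0.708 CPM in Control libraries, highest in library 1 of each group, as Cd3g and Trdc were. Blk is also among the 5 tested B and plasma cell markers. All 5 had positive fold changes, against 49.4% of all genes, with a median log2 fold change of 0.53.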
